A study of Mus musculus with 19 samples.

Results

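The 9 genes described here code for neurotrophins and other secreted factors linked to neuronal activity, together with 1 receptor, and were measured in mouse hippocampus 4 days after kainate-induced status epilepticus or saline. They are Bdnf, Ntf3, Ntrk2, Vgf, Nptx2, Inhba, Scg2, Fgf2 and Igf1. They were chosen by name, with earlier results of these data known. Each was found through the gene symbol paired with its Ensembl ID in the authors' annotated table, among 55416 genes with read counts. All 9 passed the filter on low counts that kept 19234 genes for testing. Total RNA depleted of ribosomal RNA was sequenced from 19 hippocampal samples of C57BL6 mice. In EZH2nHom kainate (n = 4) the genotype was EZH2(-/-);Syn1Cre(+/-), in which floxed EZH2 alleles are deleted by Cre under the neuronal Synapsin1 promoter, and status epilepticus was induced with repeated low doses of kainate, an agonist of glutamate receptors. In WT kainate (n = 5) the genotype was EZH2(+/+);Syn1Cre(+/-) with the same kainate model. EZH2nHom saline (n = 5) and WT saline (n = 5) had these same 2 genotypes and were injected with saline, so all 4 groups carried the Cre driver. The deletion is directed to neurons, so glia and vessel cells, which are also in the samples, are not its target. EZH2 is the enzyme of Polycomb repression that methylates histone H3. Age was not among the labels used here.

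Neurotrophins are small secreted proteins that bind Trk receptor kinases. Bdnf and Ntf3 code for brain-derived neurotrophic factor and neurotrophin 3, and Ntrk2 codes for TrkB, the receptor of BDNF. Bdnf, Vgf, Nptx2, Inhba and Scg2 are known to be induced by neuronal activity, several of them through the transcription factor CREB, and their products leave the cell through secretory vesicles. Fgf2 and Igf1 code for growth factors made largely outside neurons in the injured brain, by astrocytes and by microglia and macrophages.

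CREB binds the sequence TGACGTCA, which is its own reverse complement, and the shorter site TGACG, read as CGTCA on the other strand. Promoters of 7 of the 9 genes, 14 promoters in all, were matched in RefSeq on build GRCm38.p6. Vgf and Nptx2 were not matched. The 250 bases before the start were searched on both strands. The 3 promoters with a match are given 5′ to 3′ on the strand of the gene, with the matched letters in capitals, because Scg2, Bdnf and Fgf2 are among the genes whose kainate responses are described here. They lie at chr1:79440027-79440276 on the minus strand (Scg2), chr2:109692186-109692435 on the plus strand (1 of the 7 promoters of Bdnf) and chr3:37348403-37348652 on the plus strand (Fgf2).
Scg2: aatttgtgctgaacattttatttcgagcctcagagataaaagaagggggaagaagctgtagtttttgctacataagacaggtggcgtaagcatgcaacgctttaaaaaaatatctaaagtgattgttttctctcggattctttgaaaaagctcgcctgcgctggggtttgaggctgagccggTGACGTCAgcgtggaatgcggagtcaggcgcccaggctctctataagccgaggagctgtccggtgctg
Bdnf: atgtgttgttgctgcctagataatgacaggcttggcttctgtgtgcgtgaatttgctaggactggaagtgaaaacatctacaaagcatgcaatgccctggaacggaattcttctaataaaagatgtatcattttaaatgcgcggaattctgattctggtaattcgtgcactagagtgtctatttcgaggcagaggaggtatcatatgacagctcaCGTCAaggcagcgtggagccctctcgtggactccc
Fgf2: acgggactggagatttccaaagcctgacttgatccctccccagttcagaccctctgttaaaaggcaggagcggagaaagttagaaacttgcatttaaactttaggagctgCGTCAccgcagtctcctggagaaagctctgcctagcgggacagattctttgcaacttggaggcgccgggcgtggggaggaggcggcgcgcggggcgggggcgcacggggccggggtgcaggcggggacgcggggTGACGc
The Scg2 promoter held the full 8-base sequence, starting 68 bases before the start, and the 2 overlapping shorter sites inside it. The Bdnf promoter held a single shorter site 35 bases before the start, and the other 6 Bdnf promoters held no match. The Fgf2 promoter held shorter sites 140 and 6 bases before the start. Of 32851 RefSeq promoters of the same length, 508 (1.55%) held the full sequence and 5836 (17.8%) held a shorter site, so 3 of 14 promoters with a shorter site is a share near that of all promoters. A match describes these letters only, and no binding was measured.

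Total reads ran from 24496685 to 43948317 per library. Levels are given as CPM, the usual count of a gene scaled to its library total, with TMM scaling of the totals, and changes as log2 fold changes from edgeR's quasi-likelihood test with their SE. A gene is said to have passed where its adjusted p was under 0.05, with Benjamini-Hochberg adjustment over all 19234 genes. The labels number the replicates without naming animals, so p-values measure the spread between these samples. The second principal component of log2 CPM, with 13.9% of the variance, set EZH2nHom kainate replicate 2 apart at -108.5, against -19.0 to 27.5 in the other libraries. Several values below are also given without this library. Y-linked reads were present in 3 of 4 libraries of EZH2nHom kainate, in 3 of 5 of WT kainate, in all 5 of EZH2nHom saline and in 3 of 5 of WT saline, so sex-linked reads were not balanced over the groups. Gene-level Ezh2 averaged 17.5 ± 2.40, 15.2 ± 4.53, 13.6 ± 1.42 and 11.2 ± 1.17 CPM (SD) in EZH2nHom kainate, WT kainate, EZH2nHom saline and WT saline. It passed in neither genotype comparison, and whole-gene counts of the whole tissue do not check the labels. Neuronal markers were read in every library, at 3359 to 5731 CPM summed over 6 genes. In whole tissue, fewer cells of a type and less RNA per cell cannot be told apart.

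In both genotypes the clearest changes after kainate were a fall of Ntf3 and rises of Nptx2 and Inhba. In EZH2nHom mice 6 of the 9 genes passed: Ntf3 fell, and Bdnf, Vgf, Nptx2, Inhba and Fgf2 rose. In this comparison 26.1% of all genes passed, 14.3% higher and 11.8% lower. In WT mice 3 of the 9 passed: Ntf3 fell, and Nptx2 and Inhba rose. In WT 12% of all genes passed, 9.47% higher and 2.57% lower. Ntrk2, Scg2 and Igf1 passed in neither genotype. The median log2 change of all genes tested was -0.02 in both comparisons.

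**Figure D1:**
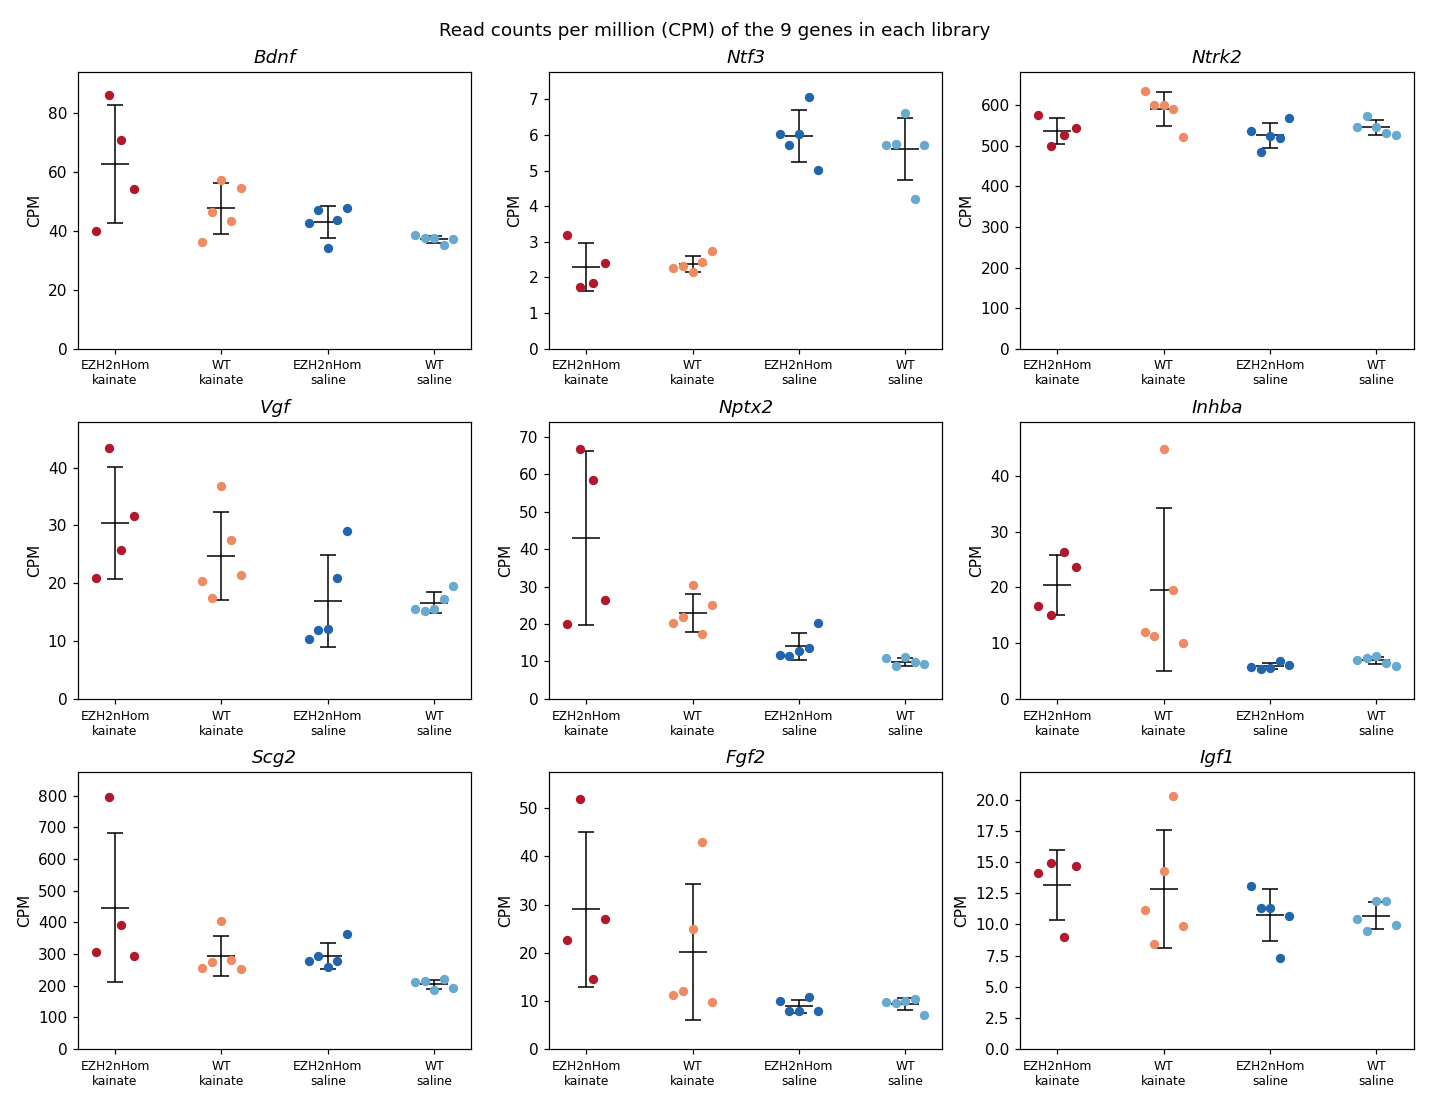
CPM (y axis, from 0) of the 9 genes in each of the 19 libraries (points), by group on the x axis, with the mean (long line) and ± SD (error bars). Ntf3 sits at 1.73 to 3.19 CPM in the 9 kainate libraries, with the 10 saline libraries above them at 4.20 to 7.06 CPM, while the kainate groups of Nptx2, Inhba and Fgf2 are spread widely above most saline libraries.

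Ntf3, the neurotrophin that acts mainly through the receptor TrkC, moved the other way from most of the others. In EZH2nHom, Ntf3 had 3.19, 1.73, 1.85 and 2.40 CPM after kainate, against 6.01, 5.71, 6.01, 7.06 and 5.02 CPM after saline. In WT it had 2.27, 2.33, 2.14, 2.43 and 2.74 CPM after kainate, against 5.70, 5.75, 6.61, 4.20 and 5.71 CPM after saline. Every kainate library of either genotype lay below every saline library, and the 2 kainate groups overlapped each other. The log2 change was -1.38 ± 0.18 in EZH2nHom (0.385 of the saline level, 95% interval 0.300 to 0.494, adjusted p = 3.84e-05). In WT it was -1.23 ± 0.17 (0.427 of the saline level, 95% interval 0.339 to 0.538, adjusted p = 0.000165). The values rest on 47 to 127 reads per EZH2nHom kainate library and 138 to 232 reads per EZH2nHom saline library.

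Markers of dentate granule cells moved with Ntf3. Their summed level was 134 to 279 CPM in EZH2nHom kainate, against 281 to 375 CPM in EZH2nHom saline, and 3 of the 6 markers fell. It was 150 to 258 CPM in WT kainate, against 270 to 411 CPM in WT saline, and 4 of 6 fell. No marker of the list was at 0 in any library. Within groups too, libraries with more of these markers had more Ntf3: the deviations of the 19 libraries from their group means correlated with r = 0.88 on the log2 scale (0.85 without EZH2nHom kainate replicate 2). Ntf3 was not alone in this, since the same markers deviated against Scg2 (r = -0.735, and -0.67 without that library) and Nptx2 (r = -0.70 and -0.59). The genes most like Ntf3 in these deviations, of 15232 compared, were Dgkh (r = 0.88), Dsp (r = 0.88) and Rimbp3 (r = 0.85), and Dsp is itself one of the 6 markers. These libraries share tissue and scaling, and the part of granule cell markers in the Ntf3 result was not tested.

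Bdnf, which acts through TrkB, was higher after kainate by a smaller factor. In EZH2nHom, Bdnf had 40.0, 86.2, 71.1 and 54.3 CPM after kainate, against 42.8, 47.0, 34.2, 43.7 and 47.7 CPM after saline. In WT it had 36.3, 46.5, 57.4, 43.5 and 54.5 CPM after kainate, against 38.5, 37.7, 37.6, 35.2 and 37.2 CPM after saline. The kainate groups were far more spread than WT saline, whose libraries were almost level, and in both genotypes 1 kainate library, replicate 1, lay within the saline range. In EZH2nHom the log2 change was 0.55 ± 0.17 (1.46-fold, 95% interval 1.16 to 1.83, adjusted p = 0.0209). In WT it was 0.36 ± 0.16 (1.28-fold, 95% interval 1.03 to 1.59, adjusted p = 0.167) and did not pass. The EZH2nHom call was lost without EZH2nHom kainate replicate 2, where the log2 change was 0.36 (adjusted p = 0.0917), without EZH2nHom kainate replicate 3 or EZH2nHom saline replicate 3, and in a fit to only these 2 groups (0.59, adjusted p = 0.0506). An antisense gene model, Gm45346, shares 896 of the 6217 exon bases of Bdnf (14.4%), and had at most 17 reads in a library. The strand setting of the counts is not given in the sources used here.

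Ntrk2, the BDNF receptor, stood at a high and even level. It had 576, 499, 527 and 544 CPM in EZH2nHom kainate, against 535, 484, 524, 518 and 568 CPM in EZH2nHom saline. It had 636, 599, 601, 590 and 523 CPM in WT kainate, against 547, 573, 546, 532 and 526 CPM in WT saline. All 4 groups overlapped, and the order of their means, with WT kainate on top, did not exceed the spread of neighbouring groups. The ratio of kainate to saline was 1.02 in EZH2nHom (95% interval 0.927 to 1.12, adjusted p = 0.799) and 1.08 in WT (0.989 to 1.19, adjusted p = 0.311). The counts sum all isoforms of the gene, so the full-length and truncated TrkB forms were not separated.

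Other listed genes of the neurotrophin system were counted in the same way. Beside the kainate counts of this and later lists stand the shares of all genes tested. These were 14.3% higher and 11.8% lower in EZH2nHom, and 9.47% higher and 2.57% lower in WT. Of the 8 receptors and co-receptors tested, Ntrk2 among them, 1 rose and 1 fell in EZH2nHom, near the shares of all genes, and 0 passed in WT. Sort1, the sortilin receptor of proneurotrophins, fell in EZH2nHom (log2 change -0.42 ± 0.13, adjusted p = 0.0185) and Sorcs2, of the same family, rose (0.28 ± 0.10, adjusted p = 0.0438). Of 11 genes for the processing of proneurotrophins and prohormones, 3 rose in EZH2nHom and 1 in WT, and none fell. Plat, the tissue plasminogen activator, rose in both, by 0.83 ± 0.12 in EZH2nHom (adjusted p = 9.61e-05) and 0.58 ± 0.12 in WT (adjusted p = 0.00278). Furin and Pcsk5, proprotein convertases, rose in EZH2nHom by 0.76 ± 0.20 and 0.42 ± 0.11 (adjusted p = 0.00827 and 0.00997).

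Vgf and Scg2 code for granin-family proteins of dense-core vesicles that are cut into neuropeptides. In EZH2nHom, Vgf had 21.0, 43.4, 25.8 and 31.6 CPM after kainate, against 10.3, 11.9, 12.2, 20.9 and 29.1 CPM after saline. Vgf in WT had 20.4, 17.5, 36.8, 27.5 and 21.5 CPM after kainate, against 15.6, 15.3, 15.5, 17.3 and 19.5 CPM after saline. Replicates 4 and 5 of EZH2nHom saline lay well above the other 3 of their group, and replicate 5 lay within the range of EZH2nHom kainate. In WT, kainate replicate 2 lay below saline replicate 5, so the treatments overlapped in both genotypes. The log2 change was 0.85 ± 0.28 in EZH2nHom (1.80-fold, 95% interval 1.24 to 2.62, adjusted p = 0.0294) and 0.57 ± 0.26 in WT (1.48-fold, 95% interval 1.04 to 2.12, adjusted p = 0.185). The EZH2nHom call was lost without EZH2nHom kainate replicate 2 (0.63, adjusted p = 0.111) and without any of 4 other EZH2nHom libraries, kainate replicate 4 and saline replicates 1, 2 and 3. It was also lost in a fit to only these 2 groups (0.89, adjusted p = 0.0739) and with no filter on low counts (0.87, adjusted p = 0.0587). Reads of noncoding structural RNAs were 0.675% and 0.546% of reads in EZH2nHom saline replicates 4 and 5, against 0.146% to 0.152% in the other 3. In EZH2nHom kainate the share was 0.671% in replicate 4 and 0.114% to 0.205% in replicates 1 to 3. The highest Vgf of that group was in replicate 2, at a share of 0.114%. With the structural RNA share as a covariate the EZH2nHom change of Vgf was 1.02 ± 0.25 (adjusted p = 0.0062). The part of that share in the Vgf values was not tested.

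Scg2, secretogranin II, was the most abundant of the 9 per length of all annotated exons joined. This length pools the isoforms and was 19.3 kilobases for Ntrk2 and 2.5 for Scg2. In CPM alone Ntrk2 was higher, at a mean of 545 against 205 for Scg2 in WT saline. At 81.5 CPM per kilobase of exon in WT saline Scg2 stood above Ntrk2 at 28.2. Bdnf, Vgf, Nptx2 and Ntf3 lay at 3.26 to 5.99 and Fgf2, Igf1 and Inhba at 1.08 to 1.38. In EZH2nHom, Scg2 had 307, 794, 391 and 293 CPM after kainate, against 278, 294, 259, 277 and 364 CPM after saline. Scg2 in WT had 256, 275, 403, 281 and 252 CPM after kainate, against 211, 215, 187, 220 and 192 CPM after saline. In WT every kainate library lay above every saline library, whereas in EZH2nHom the groups overlapped and replicate 2 stood far above the rest. The log2 change did not pass in either genotype, at 0.60 ± 0.22 in EZH2nHom (adjusted p = 0.0502) and 0.52 ± 0.21 in WT (adjusted p = 0.122). The EZH2nHom change lay at the threshold: it passed in 11 of the 19 fits that left out 1 library, with DESeq2 (0.62, adjusted p = 0.0252), with size factors (0.62, adjusted p = 0.0436), with a stricter filter (0.60, adjusted p = 0.0441) and with Y-linked reads as a covariate (0.64, adjusted p = 0.038). Without EZH2nHom kainate replicate 2 the model's spread for Scg2 was smaller, and the WT change of 0.52 ± 0.12 passed (adjusted p = 0.00738) while the EZH2nHom change was 0.17 (adjusted p = 0.401). Of the 11 granins and dense-core vesicle genes tested, Vgf and Scg2 among them, 3 rose and 3 fell in EZH2nHom and 1 rose and 1 fell in WT. Scg3, secretogranin III, rose in both (0.29 ± 0.08 in EZH2nHom and 0.26 ± 0.08 in WT), Cadps2, a priming factor of dense-core vesicles, fell in both (-0.85 ± 0.14 and -0.52 ± 0.13), and Chga, chromogranin A, rose in EZH2nHom (0.57 ± 0.18, adjusted p = 0.0212).

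Nptx2, a secreted pentraxin that gathers AMPA receptors at excitatory synapses, had its largest values in the EZH2nHom kainate group. In EZH2nHom, Nptx2 had 20.1, 66.9, 58.5 and 26.5 CPM after kainate, against 11.9, 11.6, 12.8, 13.7 and 20.2 CPM after saline. Nptx2 in WT had 20.2, 21.8, 30.5, 17.3 and 25.0 CPM after kainate, against 10.9, 8.66, 11.2, 9.80 and 9.20 CPM after saline. Replicates 2 and 3 of EZH2nHom kainate were far above all other libraries, while replicate 1 was level with EZH2nHom saline replicate 5, which was the only overlap with saline of the same genotype. The log2 change was 1.61 ± 0.27 in EZH2nHom (3.06-fold, 95% interval 2.11 to 4.44, adjusted p = 0.000305) and 1.21 ± 0.26 in WT (2.31-fold, 95% interval 1.61 to 3.30, adjusted p = 0.00493). The related pentraxins Nptx1 and Nptxr did not pass, with log2 changes of 0.17 and -0.23 in EZH2nHom and -0.17 and -0.16 in WT. Of the 9 pentraxins and partners tested, Nptx2 was the only one to rise in either genotype, and 3 fell in each. Gria1, an AMPA receptor subunit, fell in both (-0.70 ± 0.16 in EZH2nHom and -0.48 ± 0.15 in WT). So did Lgi1, a secreted synaptic protein (-0.35 ± 0.08 in EZH2nHom and -0.29 ± 0.08 in WT). Gria4, another AMPA receptor subunit, fell in EZH2nHom (-0.50 ± 0.10), and C1ql3, a secreted C1q-like synaptic protein, fell in WT (-0.61 ± 0.14). The median log2 change of these 9 genes was -0.29 in EZH2nHom and -0.17 in WT, against -0.02 for all genes.

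Inhba, the subunit that forms activin A, had the largest estimated log2 rise of the 9 genes in both genotypes. In EZH2nHom, Inhba had 16.6, 15.0, 26.3 and 23.6 CPM after kainate, against 5.79, 5.38, 5.57, 6.81 and 6.004 CPM after saline. In WT it had 12.1, 11.4, 44.9, 19.5 and 9.96 CPM after kainate, against 7.06, 7.28, 7.74, 6.41 and 5.98 CPM after saline. All kainate libraries lay above all saline libraries, and WT kainate replicate 3 stood far above the other 4 of its group. The log2 change was 1.79 ± 0.33 in EZH2nHom (3.45-fold, 95% interval 2.21 to 5.40, adjusted p = 0.000631) and 1.501 ± 0.31 in WT (2.83-fold, 95% interval 1.85 to 4.34, adjusted p = 0.00371). Without WT kainate replicate 3 the WT change of Inhba was at its lowest, 0.93, and still passed. Of 16 genes of the activin and BMP arm, Inhba among them, 5 rose and 2 fell in EZH2nHom and 3 rose and 1 fell in WT. Acvr1c, the type I receptor ALK7, rose by 0.88 ± 0.16 in EZH2nHom and 1.01 ± 0.16 in WT (adjusted p = 0.000632 and 0.00033). Acvr1, another type I receptor, rose by 0.83 ± 0.11 in EZH2nHom and 0.40 ± 0.10 in WT (adjusted p = 2.63e-05 and 0.0124).

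Fgf2, basic fibroblast growth factor, varied widely among kainate libraries. In EZH2nHom, Fgf2 had 22.7, 52.0, 14.6 and 26.9 CPM after kainate, against 9.91, 7.91, 7.85, 10.8 and 7.995 CPM after saline. In WT it had 11.3, 12.04, 25.0, 43.0 and 9.69 CPM after kainate, against 9.76, 9.54, 10.01, 10.5 and 7.12 CPM after saline. In EZH2nHom all kainate libraries lay above all saline libraries, and in WT replicates 3 and 4 stood far above the saline range while replicate 5 lay within it. The log2 change was 1.70 ± 0.38 in EZH2nHom (3.26-fold, 95% interval 1.94 to 5.48, adjusted p = 0.0031) and 1.10 ± 0.36 in WT (2.14-fold, 95% interval 1.31 to 3.52, adjusted p = 0.0565). The WT change of Fgf2 was 0.62 (adjusted p = 0.259) without WT kainate replicate 4, and it passed in 5 of the 19 fits that left out 1 library and with DESeq2 (1.10, adjusted p = 0.0159). Nudt6, on the opposite strand, shares 640 of the 6782 exon bases of Fgf2 (9.44%). Nudt6 averaged 1.55 CPM in EZH2nHom kainate, 1.15 in WT kainate, 1.10 in EZH2nHom saline and 1.23 in WT saline, and passed in no comparison.

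Igf1, insulin-like growth factor 1, did not pass in either genotype. It had 14.1, 14.9, 8.96 and 14.7 CPM in EZH2nHom kainate, against 13.1, 11.3, 11.3, 7.33 and 10.7 CPM in EZH2nHom saline. It had 11.2, 8.41, 14.3, 20.3 and 9.85 CPM in WT kainate, against 10.4, 9.45, 11.9, 11.8 and 9.99 CPM in WT saline. The groups overlapped throughout, with WT kainate replicate 4 the highest library. The ratio of kainate to saline was 1.22 in EZH2nHom (95% interval 0.911 to 1.64, adjusted p = 0.347) and 1.19 in WT (0.902 to 1.58, adjusted p = 0.489).

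Counted by ranges, 3 of the 9 genes did not overlap between kainate and saline in EZH2nHom (Ntf3 lower, Inhba and Fgf2 higher), where 19.2% of all genes did not overlap (9.93% higher and 9.23% lower). In WT, 4 of the 9 did not overlap (Ntf3 lower, Nptx2, Inhba and Scg2 higher), against 14.4% of all genes (9.79% higher and 4.63% lower).

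**Figure D2:**
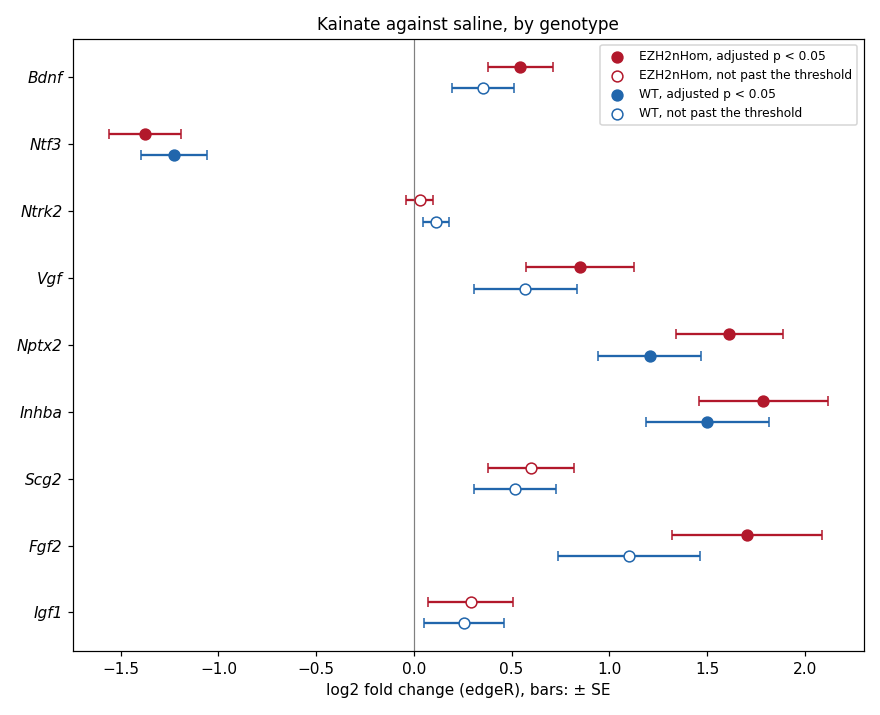
Log2 fold change of kainate against saline (x axis, edgeR) with ± SE bars for each of the 9 genes (y axis) in EZH2nHom (red) and WT (blue), filled where the adjusted p was under 0.05. The 2 genotypes lie on the same side of 0 for every gene, with Ntf3 at -1.38 and -1.23 and Inhba at 1.79 and 1.501, and their SE bars overlap.

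Markers of glia and leukocytes moved with kainate too. Microglia and macrophage markers summed to 597 to 1357 CPM in EZH2nHom kainate, against 258 to 305 CPM in EZH2nHom saline, and 5 of 6 rose. They summed to 558 to 1490 CPM in WT kainate, against 316 to 355 CPM in WT saline, and 6 of 6 rose. Astrocyte markers ran from 5710 to 9850 CPM in EZH2nHom kainate, against 4052 to 4613 CPM in EZH2nHom saline, and from 7807 to 9879 CPM in WT kainate, against 5160 to 5874 CPM in WT saline, with 4 of 6 higher in each genotype. Leukocyte markers ran from 39.6 to 82.3 CPM in EZH2nHom kainate, against 11.1 to 17.8 CPM in EZH2nHom saline, and from 25.6 to 98.0 CPM in WT kainate, against 14.6 to 18.7 CPM in WT saline. Of the 5 leukocyte markers tested, 3 rose in EZH2nHom and 2 in WT, and the T cell marker Cd3e was at or near 0 in all 19 libraries. Within groups, Fgf2 deviated with the microglia markers (r = 0.45 over 19 libraries, 0.88 without EZH2nHom kainate replicate 2) and with the leukocyte markers (r = 0.70 and 0.85). It deviated against the markers of CA pyramidal cells (r = -0.86 and -0.85) and with those of endothelial cells (r = 0.74 and 0.69). Between Fgf2 and the markers of neurons r was -0.55 and -0.88, and for those of astrocytes it was -0.04 and 0.69. Igf1 deviated with the markers of leukocytes (r = 0.84 and 0.87), of pericytes and fibroblasts (r = 0.76 with and without that library) and of endothelial cells (r = 0.74 in both), and against those of CA pyramidal cells (r = -0.76 and -0.75). Between Igf1 and the microglia markers r was 0.61 and 0.79, for those of astrocytes 0.20 and 0.59, and for those of neurons -0.485 and -0.589. The part of these cell types in the values of Fgf2 and Igf1 was not tested.

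Some markers of neurons and oligodendrocytes also fell after kainate in EZH2nHom. Neuronal markers summed to 3374 to 4728 CPM in EZH2nHom kainate, against 5061 to 5731 CPM in EZH2nHom saline, and 3 of 6 fell. They summed to 3359 to 5153 CPM in WT kainate, against 4452 to 4911 CPM in WT saline, and 0 of 6 passed. Of the markers of inhibitory neurons 4 of 6 fell in EZH2nHom and 1 of 6 in WT, and of those of CA pyramidal cells 2 of 8 fell in EZH2nHom and 0 of 8 in WT. Oligodendrocyte markers ran from 3415 to 5824 CPM in EZH2nHom kainate, against 5955 to 9433 CPM in EZH2nHom saline, and 3 of 6 fell. In WT 0 of 6 oligodendrocyte markers passed. Red blood cell genes ran from 552 to 1974 CPM in WT kainate, against 258 to 770 CPM in WT saline, and 5 of 5 rose, while 0 of 5 passed in EZH2nHom. The part of these markers in the kainate changes of Bdnf, Vgf, Nptx2 and Inhba was not tested.

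Among other genes of these growth factor arms, 9 of 26 FGF genes rose and 5 fell in EZH2nHom, Fgf2 included, and 2 rose and 3 fell in WT. The median of the 26 was 0.16 in EZH2nHom and -0.08 in WT. Sdc4, a heparan sulfate proteoglycan that binds FGFs, rose in both (1.76 ± 0.27 in EZH2nHom and 0.88 ± 0.25 in WT). Fgf9, another ligand, fell in both (-0.63 ± 0.12 in EZH2nHom and -0.36 ± 0.11 in WT). Fgfr3, a receptor, rose in EZH2nHom (0.66 ± 0.13). In WT, Spry4, a feedback inhibitor of receptor kinases, and Etv4, a transcription factor of the pathway, fell (-0.41 ± 0.12 and -0.77 ± 0.20). Of 14 IGF genes, 4 rose and 3 fell in EZH2nHom and 2 rose in WT. Igfbp5, an IGF-binding protein, rose in both (0.93 ± 0.20 in EZH2nHom and 0.88 ± 0.19 in WT), as did Igfbp6 (0.80 ± 0.24 and 0.99 ± 0.23). Pappa, a protease that cuts IGF-binding proteins, rose in EZH2nHom (2.27 ± 0.45) and Igf2 fell there (-1.76 ± 0.40).

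Further growth factors and the regulators of activity-linked transcription were compared in the same way. Of 25 other growth factors and receptors, 7 rose and 3 fell in EZH2nHom and 6 rose and 1 fell in WT. Cntf, ciliary neurotrophic factor, averaged 7.69 ± 2.37 CPM in EZH2nHom kainate and 1.28 ± 0.25 in EZH2nHom saline. In WT libraries it averaged 6.77 ± 2.61 CPM in WT kainate and 1.85 ± 0.41 in WT saline (SD). Cntf rose by 2.58 ± 0.28 in EZH2nHom and 1.86 ± 0.27 in WT (adjusted p = 8.41e-06 and 0.000219). Hgf, hepatocyte growth factor, rose by 0.92 ± 0.17 in EZH2nHom and 0.83 ± 0.17 in WT. Of 19 regulators, 3 rose (Fos, Fosb and Rest) and 3 fell in EZH2nHom, and 0 passed in WT. Fos, an immediate early gene, averaged 20.4 ± 9.43 CPM in EZH2nHom kainate and 6.26 ± 3.74 in EZH2nHom saline (SD), a log2 rise of 1.70 ± 0.45 (adjusted p = 0.00889). In WT, Fos averaged 10.9 ± 5.50 CPM after kainate and 5.30 ± 2.72 after saline (SD), a log2 change of 1.03 ± 0.43 that did not pass (adjusted p = 0.134). Over all 133 tested genes of these lists that are not among the 9, 32 rose and 23 fell in EZH2nHom, and 14 rose and 9 fell in WT, with medians of 0.09 and 0.03. Of all genes tested, 14.3% rose and 11.8% fell in EZH2nHom, and 9.47% rose and 2.57% fell in WT.

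**Figure D3:**
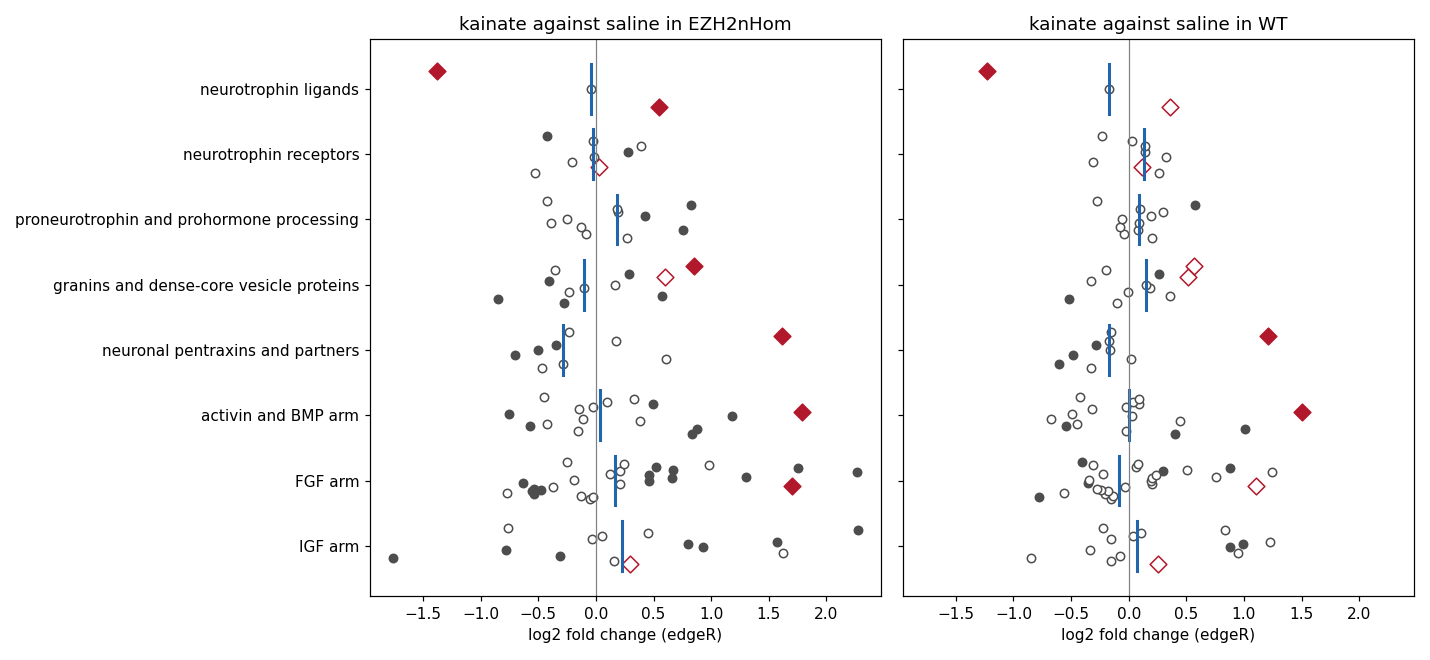
Log2 fold change of kainate against saline (x axis, edgeR) for each tested gene of 8 gene lists (y axis), in EZH2nHom (left) and WT (right). Circles are other listed genes and red diamonds the 9 genes, filled where the adjusted p was under 0.05, and the blue bar is the median of the list; Nptx2 at 1.61 and 1.21 and Ntf3 at -1.38 and -1.23 lie at the edge of their lists.

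Within WT, 6 libraries carry sample-code prefixes that occur in both treatments (4 kainate and 2 saline). With the prefix as a block, the log2 changes were -1.17 for Ntf3, 1.25 for Nptx2 and 1.42 for Inhba, close to those of all WT libraries. None of them passed in these 6 libraries (adjusted p = 0.406, 0.406 and 0.448). The labels do not say what the prefix stands for. No prefix occurs in both genotypes, so prefix and genotype cannot be told apart.

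The difference between the kainate responses of the 2 genotypes, EZH2nHom minus WT, was tested directly, to ask whether loss of neuronal EZH2 changed the response. None of the 9 genes passed. Of all 19234 genes, 0 passed in edgeR, 1685 had an unadjusted p under 0.05, and DESeq2 called 12. The largest point estimate was that of Fgf2, at 0.60 ± 0.52, a ratio of responses of 1.52 with a 95% interval of 0.746 to 3.10 (adjusted p = 0.75). It was 0.17 without EZH2nHom kainate replicate 2 and 1.08 without WT kainate replicate 4. For Nptx2 the ratio was 1.33 (0.794 to 2.21), for Bdnf 1.14 (0.834 to 1.56), and for Ntf3 0.903 (0.647 to 1.26). The interval was narrowest for Ntrk2 (0.826 to 1.08). Changes of 2-fold between the responses lie outside the intervals of Bdnf, Ntf3, Ntrk2, Scg2 and Igf1, and inside those of Vgf, Nptx2, Inhba and Fgf2. Bdnf, Vgf and Fgf2 passed for kainate in EZH2nHom and not in WT, and the test of the difference did not show that they responded differently.

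Set against WT at the same treatment, Nptx2 passed as higher in EZH2nHom hippocampi after kainate, and none of the 9 genes passed after saline. After kainate 7.61% of all genes passed (4.56% higher and 3.04% lower in EZH2nHom), and after saline 13.5% (8.33% higher and 5.16% lower). Nptx2 averaged 43.0 ± 23.1 CPM in EZH2nHom kainate (SD, n = 4) and 23.0 ± 5.06 CPM in WT kainate (SD, n = 5). Replicates 2 and 3 of EZH2nHom kainate lay above every WT kainate library and replicates 1 and 4 lay within the WT range. The log2 difference was 0.90 ± 0.27 (1.87-fold, 95% interval 1.30 to 2.70, adjusted p = 0.0468). This call sat at the threshold. It was lost in 15 of the 19 fits that left out 1 library (without EZH2nHom kainate replicate 2 the difference was 0.61, adjusted p = 0.184), and with Y-linked reads as a covariate, where it was 0.80 (adjusted p = 0.0776).

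After saline Nptx2 averaged 14.0 ± 3.52 CPM in EZH2nHom and 9.95 ± 1.09 CPM in WT (SD, n = 5 each). Scg2 averaged 294 ± 40.7 CPM in EZH2nHom saline and 205 ± 14.4 CPM in WT saline. For both genes every EZH2nHom saline library lay above every WT saline library, and in this comparison 21.3% of all genes did not overlap (12.9% higher and 8.42% lower). Neither passed: the log2 difference was 0.50 ± 0.26 for Nptx2 (adjusted p = 0.235) and 0.52 ± 0.21 for Scg2 (adjusted p = 0.107). Scg2 did pass, at 0.52 (adjusted p = 0.00532), without EZH2nHom kainate replicate 2, a library outside this comparison that widens the model's spread. In a fit to only the saline groups both passed, Scg2 at 0.50 (adjusted p = 0.000736) and Nptx2 at 0.47 (adjusted p = 0.0257). After kainate none of the 9 genes was free of overlap between the genotypes, against 7.26% of all genes (4.13% higher and 3.13% lower), and the Scg2 difference of 0.60 ± 0.22 did not pass (adjusted p = 0.0979). Without EZH2nHom kainate replicate 2 it was 0.17 (adjusted p = 0.531).

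**Figure D4:**
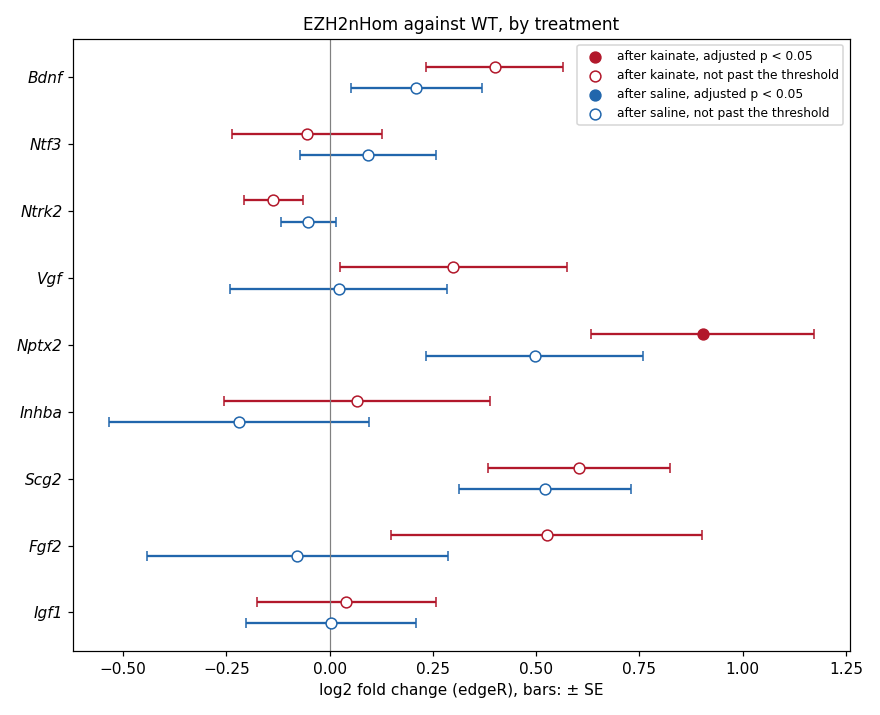
Log2 fold change of EZH2nHom against WT (x axis, edgeR) with ± SE bars for the 9 genes (y axis), after kainate (red) and after saline (blue), filled where the adjusted p was under 0.05. Nptx2 after kainate, at 0.90, is the one filled point, and Scg2 lies at 0.60 and 0.52.

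The remaining 7 genes had log2 differences between -0.14 and 0.53 after kainate and between -0.22 and 0.21 after saline, and none passed. For Ntf3 the ratio of EZH2nHom to WT was 0.963 after kainate (95% interval 0.753 to 1.23) and 1.07 after saline (0.853 to 1.33). For Bdnf it was 1.32 after kainate (1.05 to 1.65, adjusted p = 0.148) and 1.16 after saline (0.932 to 1.43). Without EZH2nHom kainate replicate 2 the differences after kainate were 0.21 for Bdnf and 0.09 for Fgf2, against 0.53 for Fgf2 with it.

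Cell markers and RNA composition differed between the genotypes too. After saline the neuronal markers summed to 5061 to 5731 CPM in EZH2nHom, against 4452 to 4911 CPM in WT, with no overlap, although 0 of 6 passed. Astrocyte markers summed to 4052 to 4613 CPM in EZH2nHom saline, against 5160 to 5874 CPM in WT saline, also with no overlap, and 1 of 6 was lower, Slc1a2. Microglia and macrophage markers ran from 258 to 305 CPM in EZH2nHom saline, against 316 to 355 CPM in WT saline, and 0 of 6 passed. The neuronal sum was thus higher in EZH2nHom saline, as Scg2 and Nptx2 were, while the astrocyte and microglia sums were lower. The median log2 difference of the 6 astrocyte markers was only -0.06. That of the oligodendrocyte markers was 0.23, as for the neuronal markers, with sums of 5955 to 9433 CPM in EZH2nHom saline and 5075 to 7109 CPM in WT saline. Pericyte and fibroblast markers summed to 188 to 271 CPM in EZH2nHom saline and 174 to 212 CPM in WT saline. Within groups, neuronal markers and Scg2 deviated with r = 0.29 (0.02 without EZH2nHom kainate replicate 2), and neuronal markers and Nptx2 with r = 0.43 (0.315). The part of these markers in the higher Scg2 and Nptx2 was not tested. Sst of the inhibitory neuron markers, Mobp of the oligodendrocyte markers and Rgs5 of the pericyte markers were higher after saline, 1 of 6 in each list. Structural RNA was 0.146% to 0.675% of reads in EZH2nHom saline, against 0.0281% to 0.056% in WT saline, with no overlap. With that share as a covariate the difference after saline was 0.67 ± 0.26 for Scg2 (adjusted p = 0.102) and 0.52 ± 0.34 for Nptx2 (adjusted p = 0.357). After kainate 0 of 6 neuronal markers passed, and Slc1a2 was again the 1 astrocyte marker of 6 that was lower. Genes of red blood cells were lower in EZH2nHom kainate, at 103 to 434 CPM summed over 5 genes, against 552 to 1974 CPM in WT kainate, with 5 of 5 lower. The part of red blood cells in the Nptx2 difference was not tested.

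Of the 133 other listed genes, 2 stood higher and 5 stood lower in EZH2nHom mice given kainate, with 4 higher and 9 lower among those given saline. Beside these counts, 7.61% of all genes passed after kainate (4.56% higher and 3.04% lower). After saline 13.5% of all genes passed (8.33% higher and 5.16% lower). The listed genes that passed are named here after their values were seen, and they were not followed through the alternative fits. For genotype after kainate, 1463 of all genes passed in the main fit and 4 in a fit to only the groups compared. Leaving out 1 library gave 670 to 2193. After kainate Chga and Fstl3, a secreted inhibitor of activin, were higher (0.68 ± 0.18 and 1.58 ± 0.42, adjusted p = 0.0242 and 0.03), and Fgf10, Irs1, Il34, Crtc1 and Camk2a were lower. After saline Sorcs1, Fgf12, Sdc2 and Pdgfa were higher, and Ntrk3, Furin, Spry4, Fgfr3, Fgf10, Igf1r, Irs1, Crtc1 and Crtc3 were lower. Ntrk3, the receptor of neurotrophin 3, averaged 225 ± 26.8 CPM in EZH2nHom saline and 301 ± 42.0 CPM in WT saline (SD; log2 difference -0.42 ± 0.13, adjusted p = 0.0365). Igf1r, the receptor of IGF1, averaged 49.2 ± 4.16 CPM in EZH2nHom saline and 70.3 ± 3.83 CPM in WT saline (-0.51 ± 0.11, adjusted p = 0.00313). Crtc1, a coactivator of CREB, averaged 34.2 ± 8.28 CPM in EZH2nHom saline and 69.8 ± 9.87 CPM in WT saline (-1.03 ± 0.19, adjusted p = 0.00145), and after kainate its difference was -0.73 ± 0.21 (adjusted p = 0.0357). The 2 genotype comparisons share no libraries, but they come from 1 fit with a shared estimate of the spread. No sample-code prefix occurs in both genotypes, so prefix and genotype cannot be told apart in either comparison.

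The order of the groups by mean level differed among the genes. EZH2nHom kainate was highest for Bdnf, Vgf, Nptx2, Inhba, Scg2, Fgf2 and Igf1 and lowest for Ntf3. Neighbouring groups in that order did not overlap for 4 genes only, between WT kainate and WT saline for Ntf3, EZH2nHom saline and WT saline for Nptx2, WT kainate and WT saline for Inhba, and WT kainate and WT saline for Scg2. All other neighbours overlapped, and for Bdnf, Ntrk2, Vgf, Fgf2 and Igf1 no neighbouring pair was separate.

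The kainate libraries also differed among themselves more than the saline libraries for most of the 9 genes, Fgf2 and Inhba among them. The coefficient of variation of Fgf2 was 55.4% in EZH2nHom kainate and 70.0% in WT kainate, against 15.3% in EZH2nHom saline and 14.0% in WT saline. For Inhba it was 26.6% in EZH2nHom kainate and 74.8% in WT kainate, against 9.39% and 10.1% in the saline groups of the same genotypes. So it was in both genotypes for Bdnf, Ntrk2, Nptx2, Scg2 and Igf1, with Scg2 at 52.8% and 21.3% against 13.8% and 7.04%. The reverse held for Ntf3 in WT (9.53% against 15.5%) and for Vgf in EZH2nHom (31.8% against 47.3%). Over all genes tested, the first principal component ran from -2.789 to 85.18 in kainate libraries and from -47.05 to -38.32 in saline libraries. EZH2nHom kainate replicate 2 was the highest library of its group for 6 of the 9 genes and WT kainate replicate 3 for 5. Over the 19 libraries, after removal of the group means, Bdnf and Nptx2 deviated together (r = 0.83, and 0.75 without EZH2nHom kainate replicate 2). So did Nptx2 and Scg2 (r = 0.75 and 0.65), Bdnf and Scg2 (r = 0.74 and 0.59), and Fgf2 and Igf1 (r = 0.71 and 0.73). For Bdnf and Fgf2 r was 0.20 with that library and -0.10 without it. These are descriptions over libraries that share tissue and scaling.

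**Figure D5:**
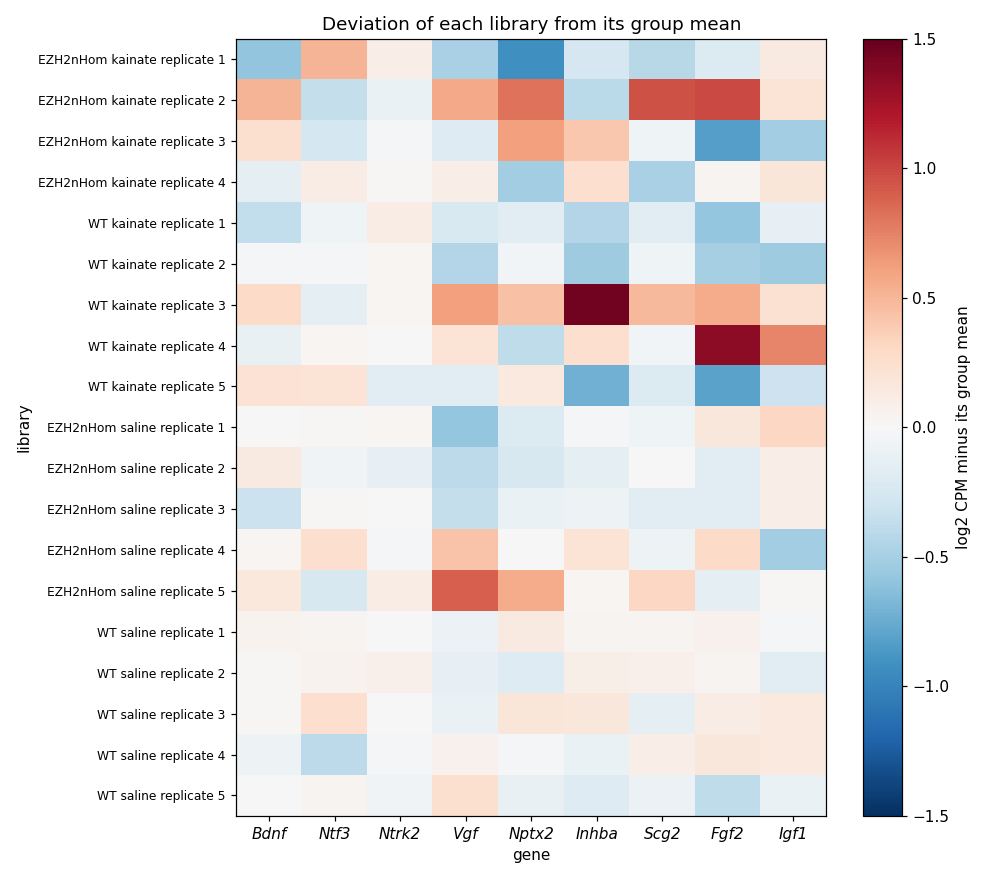
Log2 CPM of each of the 9 genes (x axis) in each of the 19 libraries (y axis), minus the mean of its group, from blue (below the mean) to red (above). The reddest cells are Inhba in WT kainate replicate 3 (1.45) and Fgf2 in WT kainate replicate 4 (1.34), and the saline rows are paler, with Vgf in EZH2nHom saline replicate 5 (0.90) the deepest of them.

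By the same measure genes most like each of the others were found among 15232 averaging at least 1 CPM. Scg2 was most like Rgs4 (r = 0.92), Dph3 and Nfil3, but without EZH2nHom kainate replicate 2 most like the neuropeptide genes Penk (r = 0.85) and Npy (r = 0.83). Nptx2 was most like Nefm, a neurofilament gene, Rrp1 and Fdft1 (r = 0.89 each), and without that library Fdft1, of sterol synthesis, was again among the most like (r = 0.89). Among the genes most like Fgf2 were Tgfbi (r = 0.95) and Tpm4 (r = 0.94), and without that library Naip2, Tep1 and the macrophage gene Cd68 (r = 0.96 each). Inhba was most like Pmepa1 (r = 0.87), Vgf most like Midn (r = 0.90), Bdnf most like Gm4202 (r = 0.88), Igf1 most like F13a1 (r = 0.92) and Ntrk2 most like Zdbf2 (r = 0.84). For Bdnf the first gene was also Gm4202 without EZH2nHom kainate replicate 2 (r = 0.83).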

How the data were processed

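The authors' read counts, whole numbers per Ensembl gene, were the only input to the tests, and no mapping or counting step was repeated. Per the submitters' processing notes the build is mm39 and DESeq2 and DESeq were used; the aligner, the counting program and the strand setting are not given in the sources used here. Another deposited table, used for gene symbols only, gives signal normalised by size factors, along with log2 fold changes, a test score and p-values of the authors, per the file headers.

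The 19 libraries were fitted together with edgeR 4.0.16 and limma 3.58.1 (R 4.3.3): filterByExpr by group, TMM, robust quasi-likelihood fit with 1 mean per group, two-sided tests, Benjamini-Hochberg adjustment over 19234 genes. The SE is the log2 change divided by the root of its F statistic. Figures used Python 3.11.15. The fit was tested on simulated data. Levels per kilobase and overlaps used exon models of GENCODE on the older build. The 9 genes and all lists were chosen with earlier results of these data known. Listed genes named are up to 3 with the smallest p per list and kainate comparison, and others were chosen after their values were seen (Nptx1 and Nptxr as relatives of the 9 genes, and those the text marks). Total reads per library were 24496685 to 43948317, and the SE also includes the spread between libraries. Replicate numbers were checked for pairing: deviations from the group means correlated at 0.125 to 0.447 in the 5 same-numbered WT kainate and WT saline pairs and at -0.0363 to 0.12 in the 4 EZH2nHom pairs, and the labels state no pairing. Replicates are numbered as in the sample titles; the count columns of EZH2nHom kainate are numbered 2 to 5 where the titles have 1 to 4, and by column number the EZH2nHom pairs correlated at -0.0948 to 0.188. Alternatives were DESeq2 1.42.0, fits to only the groups compared, other filters, a block by replicate number or by column number (the last added after seeing the data), covariates for Y-linked and structural RNA reads, a threshold of 0.01, shared code prefixes and leaving out each library. Some genes that the rule would name are not reported here.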

Additional observations from a re-analysis of the deposited data

Results flagged for a closer look

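In each of the 4 groups the lowest and the highest library of every gene were compared with the rest by Dixon's gap ratio. Of 36 such groups of values, 5 held a library far from the others, and chance gives about 1 in 20. Nptx2 stood at 20.2 CPM in EZH2nHom saline replicate 5, against 11.6 to 13.7 CPM in the other 4. Inhba stood at 44.9 CPM in WT kainate replicate 3, against 9.96 to 19.5 CPM in the other 4. Scg2 stood at 403 CPM in the same library, against 252 to 281 CPM. Fgf2 was low in WT saline replicate 5, at 7.12 CPM, against 9.54 to 10.5 CPM. Igf1 was low in EZH2nHom kainate replicate 3, at 8.96 CPM, against 14.1 to 14.9 CPM. None of the 9 genes had a difference of the kainate responses between genotypes that passed.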

How the results depend on the processing

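In both kainate comparisons, each of the 9 genes kept its direction under every alternative. Of the 9 genes, those called for kainate in WT numbered 5 in a fit restricted to the groups compared (Bdnf and Scg2 added) and 0 in the 6 libraries of shared code prefixes, a fit with fewer samples. For kainate in EZH2nHom the fit restricted to the groups compared ended the calls of Bdnf and Vgf, and no filter ended that of Vgf. A threshold of 0.01 also ended both calls (adjusted p = 0.0209 for Bdnf and 0.0294 for Vgf in the main edgeR fit). For EZH2nHom against WT after kainate the single call, Nptx2, ended and 0 genes of the 9 passed with no filter on low counts, in a fit restricted to the groups compared, with the replicate block, with Y-linked reads or structural RNA reads as a covariate, and at a threshold of 0.01. After saline 2 of the 9 passed in a fit restricted to the groups compared.

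The count of all genes called was 2815 in EZH2nHom and 1083 in WT for kainate, 284 after kainate and 1212 after saline for genotype, at the threshold of 0.01. In fits to only the groups compared it was 3066 for kainate in EZH2nHom, 4 for genotype after kainate and 5604 for genotype after saline. For genotype after kainate it was also 959 with no filter, 2214 with DESeq2 and 735 with the replicate block. For the difference of responses it was 12 with DESeq2 and 1 with the replicate block.

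Small differences changed sign. For EZH2nHom against WT after kainate Igf1 was -0.000762 with the replicate block and Inhba -0.0524 with the structural RNA covariate. After saline Vgf was -0.000108 with size factors, -0.000786 with DESeq2, -0.00103 in the groups compared, -0.0851 with the replicate block, -0.161 with the Y-linked covariate and -0.453 with the structural RNA covariate. Igf1 after saline was -0.0174 with size factors and with DESeq2, -0.0144 with no filter, -0.0122 with a stricter filter, -0.0215 in the groups compared, -0.0128 with the replicate block and -0.0934 with the Y-linked covariate. The difference of responses of Scg2 was -0.00983 with the structural RNA covariate.

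Leaving out 1 library at a time, the number of the 9 genes called was 4 to 7 for kainate in EZH2nHom, 3 to 5 in WT, 0 to 3 for EZH2nHom against WT after kainate and 0 to 1 after saline. All genes called were 3864 to 6096, 1365 to 3414, 670 to 2193 and 1675 to 4295 in these comparisons, and 0 to 4 for the difference of responses. Ranges that crossed 0 after kainate were -0.268 to 0.0541 for Ntf3, -0.102 to 0.627 for Inhba and -0.0743 to 0.267 for Igf1. After saline they were -0.0479 to 0.149 for Ntf3, -0.267 to 0.155 for Vgf and -0.0870 to 0.115 for Igf1. For the difference of responses they were -0.000511 to 0.398 for Bdnf, -0.351 to 0.269 for Scg2 and -0.0740 to 0.263 for Igf1.

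The library left out moved a count by over 1.5 times as follows. For kainate in WT the genes called were 1518 without WT saline replicate 2, 1401 without WT kainate replicate 3 and 1365 without WT kainate replicate 4. For genotype after kainate they were 706, 670 and 947 without WT kainate replicates 1, 2 and 5. After saline they were 1675 without WT saline replicate 3 and 4295 without EZH2nHom kainate replicate 2. The block by column number, chosen after seeing the data, ended the EZH2nHom kainate calls of Bdnf (0.50, adjusted p = 0.114) and Vgf (0.76, adjusted p = 0.0602) and the call of Nptx2 after kainate (0.71, adjusted p = 0.206), where 200 genes were called in all, and after saline 1 of the 9 passed, Scg2 (0.51, adjusted p = 0.0251). With it Vgf and Igf1 after saline were -0.0861 and -0.0129, and the difference of responses of Scg2 was -0.0382. Neither numbering pairs the EZH2nHom libraries by their correlations. The replicate block by title number changed no call of the 9 genes other than Nptx2 for genotype after kainate (0.80, adjusted p = 0.068), where the libraries share only a number. Of 5 WT kainate libraries, 3 matched best with the WT saline library of their own number. The cause of these changes was not tested. The counts cover whole tissue and whole genes, and with 4 or 5 libraries a group a 2-fold difference between responses lay inside the interval of 4 of the 9 genes.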
